A study of Homo sapiens with 8 samples.

Results

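Ribosome biogenesis and RNA polymerase I genes were followed across TrxR1 knockout and glucose deprivation in a human glioblastoma cell line. The set was a named list of 50 genes, matched by gene symbol. All 50 had a row among the 13730 genes of the table, and all 50 were among the 13057 genes tested, whose log2 CPM averaged at least 0 over all libraries (CPM scales read counts to library size). By role, 5 genes belong to RNA polymerase I and its promoter factors, 8 code for proteins of the small nucleolar ribonucleoproteins (snoRNPs), 15 act in assembly of the small ribosomal subunit, 19 in assembly of the large subunit, and 3 are abundant nucleolar proteins.

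The libraries came from LN229-TAZ(4SA), a line derived from LN229 glioblastoma cells whose label names TAZ(4SA), a form of the transcriptional coactivator TAZ. Its 4 groups were TrxR1 knockout cells (KO) without glucose, control cells (EV) without glucose, KO cells in regular medium and EV cells in regular medium, with 2 libraries each, called a and b here. The study asked how TrxR1 inhibition and glucose deprivation together kill tumor cells. TrxR1, thioredoxin reductase, keeps thioredoxin reduced. All groups were of the same line, and whether the KO cells were 1 clone, and how long the cells went without glucose, is not given in the sources used here. The columns used as glucose-deprived carry the suffix GlcN, read as the only other medium that the labels name.

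RNA polymerase I transcribes the long rRNA precursor in the nucleolus, with UBTF on the rDNA and RRN3 joining the polymerase to its promoter. Box C/D and box H/ACA snoRNPs then methylate and pseudouridylate the precursor, while assembly factors, many of them helicases and GTPases, fold and cut it into the small and large subunits. The process consumes much of a growing cell's energy and nucleotides, it is known to be slowed by nutrient shortage, and many of its genes are textbook targets of MYC, which binds the E-box sequence CACGTG with its partner MAX.

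Promoter sequences are shown because genes of this pathway are known to move together and to carry E-boxes. In the RefSeq GRCh38.p14 table, 43 of the 50 genes had a promoter of 250 bases before to 50 bases after the transcription start. An E-box stood in 16 of these 43 promoters (37.2%), against 10% of 10877 promoters of genes in the expression table and 7.43% of all 27305 promoters. The 5 promoters below were chosen after their values were seen. UTP20, MRTO4, EBNA1BP2 and NOP10 fell under glucose deprivation, and GNL2 rose. MRTO4, EBNA1BP2 and NOP10 were also higher in KO cells in regular medium. All 5 promoters hold an E-box, while 27 of the 43 do not, among them those of DKC1 and NOP56, which also fell. The printed promoters therefore do not represent the 43. Each is printed 5′ to 3′ on its gene's strand, from 250 bases before to 25 bases after the start, with E-boxes in capitals. UTP20 lies on the plus strand at chr12:101279855-101280129 and MRTO4 on the plus strand at chr1:19251555-19251829. EBNA1BP2 lies on the minus strand at chr1:43172546-43172820, NOP10 on the minus strand at chr15:34343112-34343386, and GNL2 on the minus strand at chr1:37595913-37596187.
UTP20: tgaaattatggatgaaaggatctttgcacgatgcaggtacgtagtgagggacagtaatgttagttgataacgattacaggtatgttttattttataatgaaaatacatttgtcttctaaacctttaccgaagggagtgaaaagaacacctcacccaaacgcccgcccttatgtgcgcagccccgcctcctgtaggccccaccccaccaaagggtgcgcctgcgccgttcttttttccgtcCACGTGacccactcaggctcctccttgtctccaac
MRTO4: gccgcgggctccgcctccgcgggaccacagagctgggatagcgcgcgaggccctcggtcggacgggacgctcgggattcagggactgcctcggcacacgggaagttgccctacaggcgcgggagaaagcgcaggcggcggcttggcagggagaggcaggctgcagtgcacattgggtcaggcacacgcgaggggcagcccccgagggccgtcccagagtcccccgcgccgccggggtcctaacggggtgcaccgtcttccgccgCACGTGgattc
EBNA1BP2: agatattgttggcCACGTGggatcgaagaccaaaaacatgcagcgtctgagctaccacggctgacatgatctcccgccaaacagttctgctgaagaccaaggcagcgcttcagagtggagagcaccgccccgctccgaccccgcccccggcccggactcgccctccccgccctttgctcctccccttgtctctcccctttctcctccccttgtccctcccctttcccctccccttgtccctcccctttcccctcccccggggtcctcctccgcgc
NOP10: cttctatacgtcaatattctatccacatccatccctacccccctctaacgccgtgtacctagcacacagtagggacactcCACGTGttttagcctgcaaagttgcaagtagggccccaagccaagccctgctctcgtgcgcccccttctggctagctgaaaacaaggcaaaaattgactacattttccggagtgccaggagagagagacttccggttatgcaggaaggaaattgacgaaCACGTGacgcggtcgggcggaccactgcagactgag
GNL2: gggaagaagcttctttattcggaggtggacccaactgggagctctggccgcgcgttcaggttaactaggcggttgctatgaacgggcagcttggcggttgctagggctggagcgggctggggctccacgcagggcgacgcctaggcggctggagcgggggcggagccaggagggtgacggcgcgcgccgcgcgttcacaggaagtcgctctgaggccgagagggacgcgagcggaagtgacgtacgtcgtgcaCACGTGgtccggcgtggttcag
Counting the start as base 1, the E-box begins at base -10 in UTP20, 15 in MRTO4, -237 in EBNA1BP2, -170 and -11 in NOP10, and 4 in GNL2.

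Of the 17 E-boxes in the 43 promoters, 14 (82.4%) began between base -20 and base 40 around the start, a window set after the positions were seen, against 255 of 1230 E-boxes (20.7%) in promoters of all genes in the expression table. A second motif was also frequent: the ETS sequence CCGGAAG was present in 18 of 43 promoters (41.9%), against 19.1% of the expression table's genes. The GC box GGGCGG, at 72.1% against 69%, the YY1 sequence ATGGCGG, at 14% against 10.2%, and the NRF1 core GCATGCG, at 4.65% against 6.49%, lay closer to that background. The core TGATGNA of the ATF4 and C/EBP element was in 0 of 43 promoters, against 5.17%. Motifs were searched on both strands, and a match is a description of letters, not of a bound site.

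Glucose deprivation lowered most of these mRNAs in both cell types. In KO cells, 44 of 50 fell and 1 rose, where 36.8% of all genes tested fell and 36.5% rose. In EV cells, 40 fell and 3 rose, where 38.7% of all genes fell and 37.5% rose. The median log2 fold change of the 50 genes, glucose-deprived over regular medium, was -0.42 in KO cells and -0.32 in EV cells, against -0.002 and -0.011 over all genes tested. Calls are at an adjusted p under 0.05 in limma with Benjamini-Hochberg adjustment over all genes tested. The changes were moderate: in EV cells only PPAN and RRS1 of the genes that fell did so by more than 2-fold, and in KO cells 0 did. A CPM is a share of a library's reads, so less of an mRNA per cell and fewer cells that express it cannot be told apart.

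Summed over the 50 genes, the level was 8123 and 7723 CPM in glucose-deprived KO cells and 9837 and 10176 CPM in KO cells in regular medium. In EV cells the sum was 7723 and 7572 CPM without glucose, against 9469 and 9461 CPM in regular medium. The deprived libraries lay below every library in regular medium, and the sum weights the most abundant transcripts. Taken gene by gene, both deprived libraries lay below both regular ones for 44 genes in KO cells (background 42.1% of all genes) and for 44 in EV cells (background 45.7%), and above them for 2 genes in KO cells (background 41.6%) and 3 in EV cells (background 44.7%).

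**Figure D1:**
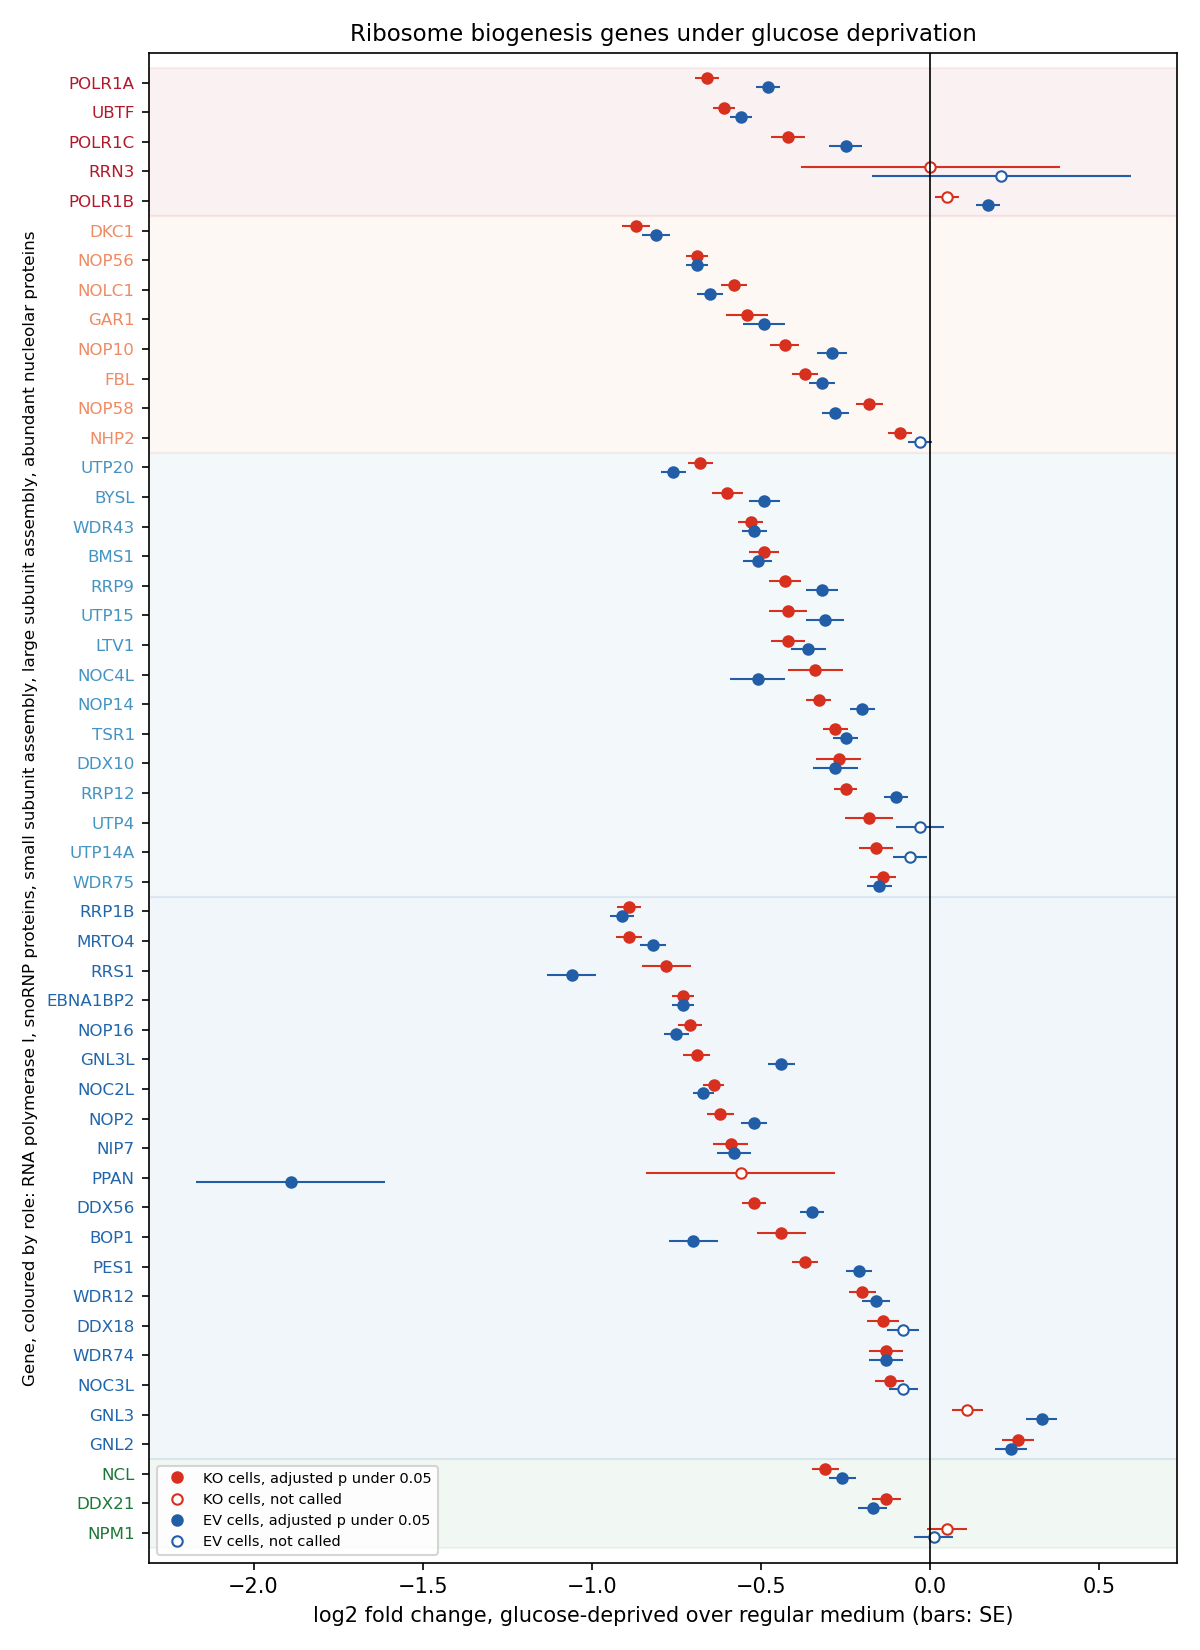
Log2 fold change, glucose-deprived over regular medium, of each of the 50 genes (x axis; points, bars are SE), in KO cells (red) and EV cells (blue), with filled points at an adjusted p under 0.05; genes run down the page by role. Most points lie left of 0, with GNL2 at 0.26 in KO cells and 0.24 in EV cells on the other side.

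**Figure D2:**
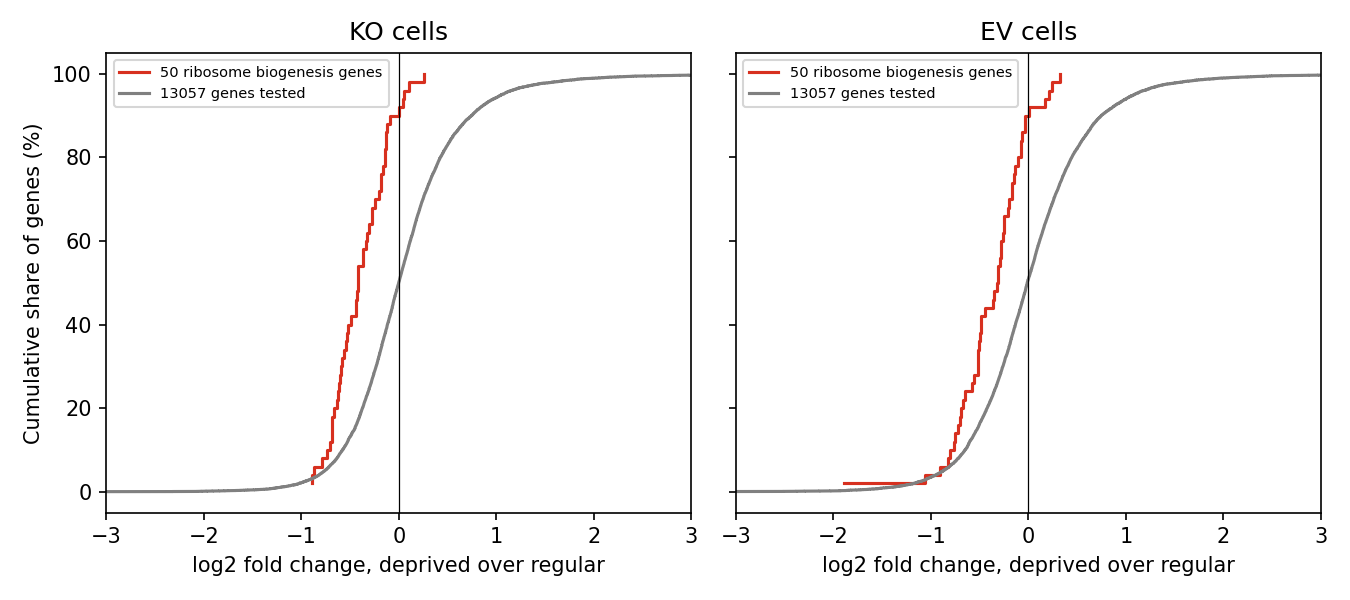
Cumulative share of genes (y axis, percent) by log2 fold change, glucose-deprived over regular medium (x axis, drawn between -3 and 3), for the 50 genes (red) and all 13057 genes tested (grey), in KO cells (left) and EV cells (right). The red curve passes its midpoint at -0.42 in KO cells and -0.32 in EV cells, while the grey curve passes its own close to 0.

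Among RNA polymerase I genes, 3 of 5 fell in each cell type. The background for this and the following roles is the share of all genes tested that fell, 36.8% in KO and 38.7% in EV cells. For genes that rose it is 36.5% and 37.5%. UBTF, which coats the rDNA and recruits the polymerase, had 143 and 143.6 CPM in glucose-deprived KO cells and 222.9 and 215.7 CPM in KO cells in regular medium. Its level was 142.3 and 141.9 CPM in glucose-deprived EV cells and 208.2 and 210.5 CPM in EV cells in regular medium. Deprived and regular libraries were well apart, and the log2 fold change was -0.61 ± 0.032 (SE) in KO cells (limma adjusted p = 4.2e-08) and -0.56 ± 0.032 in EV cells (limma adjusted p = 7.5e-08). POLR1A, the largest subunit of the polymerase, had 118.6 and 116.6 CPM in glucose-deprived KO cells against 190.9 and 181.6 CPM in regular medium, and 125.9 and 124.5 CPM in glucose-deprived EV cells against 175.1 and 175.2 CPM in regular medium. Again no deprived library reached a regular one, with log2 fold changes of -0.66 ± 0.035 in KO cells (limma adjusted p = 4.5e-08) and -0.48 ± 0.035 in EV cells (limma adjusted p = 4.2e-07). POLR1C, a subunit shared with RNA polymerase III, fell by 0.42 on the log2 scale in KO cells and by 0.25 in EV cells.

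The other large polymerase subunit rose in EV cells. POLR1B, which forms the catalytic core with POLR1A, had 188.3 and 180.5 CPM in glucose-deprived KO cells against 175.5 and 181.3 CPM in regular medium, and 193.2 and 190.1 CPM in glucose-deprived EV cells against 169.8 and 170.2 CPM in regular medium. In EV cells the media did not overlap, with a log2 fold change of 0.17 ± 0.035 (limma adjusted p = 0.00097). In KO cells the libraries overlapped, and the log2 fold change of 0.05 ± 0.035 did not pass (limma adjusted p = 0.24). On values corrected for GC content, an alternative added after seeing the data, the KO value changed sign to -0.06 (limma adjusted p = 0.049). RRN3, the promoter factor known to be switched off by nutrient and energy stress through phosphorylation, lay between 0.7101 and 2.152 CPM in all 8 libraries. Both ends of that range come from the glucose-deprived EV pair. It was not called in any comparison with all libraries, and its SE was 0.383. Without EV glucose-deprived a it was called higher under deprivation in EV cells, at 1.00 (limma adjusted p = 0.0019), and lower in KO than EV cells without glucose, at -1.14 (limma adjusted p = 0.013). It has 2 named pseudogenes in the GENCODE 29 annotation with which reads could be shared.

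The snoRNP proteins fell almost as a group, 8 of 8 in KO cells and 7 of 8 in EV cells, with medians of -0.49 and -0.41 on the log2 scale. DKC1, the pseudouridine synthase of box H/ACA particles, had 150.6 and 141.9 CPM in glucose-deprived KO cells against 265.7 and 267.3 CPM in regular medium. In EV cells it had 142.1 and 133.6 CPM without glucose, against 239.2 and 243 CPM in regular medium. The log2 fold change was -0.87 ± 0.041 in KO cells (limma adjusted p = 2e-08) and -0.81 ± 0.041 in EV cells (limma adjusted p = 3e-08), with no overlap between media. Of its partners in the same particle, GAR1 fell by 0.54 in KO cells and 0.49 in EV cells and NOP10 by 0.43 and 0.29, while NHP2 had -0.09 (limma adjusted p = 0.042) in KO cells and -0.03 in EV cells, where it did not pass (limma adjusted p = 0.41).

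NOP56, a core protein of box C/D particles, had 279.2 and 270.5 CPM in glucose-deprived KO cells against 437.3 and 448.4 CPM in regular medium, and 249.8 and 244.7 CPM in glucose-deprived EV cells against 397.1 and 403.3 CPM in regular medium. The media did not overlap in either cell type, and the log2 fold change was -0.69 ± 0.033 in both (limma adjusted p = 2.1e-08 in KO and 1.8e-08 in EV). The other box C/D core proteins fell less. NOP58, which pairs with NOP56, changed by -0.18 in KO cells and -0.28 in EV cells, and FBL, the rRNA methyltransferase fibrillarin, by -0.37 and -0.32. NOLC1, a chaperone that binds both kinds of particle, fell by 0.58 in KO cells and 0.65 in EV cells.

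Small subunit assembly genes fell in KO cells in 15 of 15 cases and in EV cells in 13 of 15, with medians of -0.34 and -0.31. UTP20, a scaffold protein of the small subunit processome (gene at chr12:101280109-101386616, plus strand, GRCh38), had 123 and 120.6 CPM in glucose-deprived KO cells against 190 and 200.9 CPM in regular medium. Its level in EV cells was 108.2 and 110.9 CPM without glucose, against 185.7 and 186.2 CPM in regular medium. That is a log2 fold change of -0.68 ± 0.037 in KO cells (limma adjusted p = 5.1e-08) and -0.76 ± 0.037 in EV cells (limma adjusted p = 2.1e-08), with every deprived library below every regular one. WDR43, a processome subunit tied to rDNA transcription, had 121.4 and 118 CPM in glucose-deprived KO cells against 168.5 and 176.7 CPM in regular medium, and 117.8 and 115.6 CPM in glucose-deprived EV cells against 169.2 and 164.7 CPM in regular medium. It fell by 0.53 ± 0.037 in KO cells (limma adjusted p = 3.6e-07) and by 0.52 ± 0.037 in EV cells (limma adjusted p = 3.8e-07), and its media did not overlap.

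BMS1, a processome GTPase, fell by 0.49 in KO cells and 0.51 in EV cells, BYSL, a factor of late nuclear steps, by 0.60 and 0.49, and RRP9, which binds the U3 snoRNA, by 0.43 and 0.32. The values nearest 0 in EV cells were those of UTP4 and UTP14A. UTP4 had a log2 fold change of -0.18 in KO cells (limma adjusted p = 0.04) and -0.03 in EV cells (limma adjusted p = 0.68), and UTP14A had -0.16 (limma adjusted p = 0.014) and -0.06 (limma adjusted p = 0.28). Some of these small calls were not made with 1 library left out. RRP12, which fell by 0.10 in EV cells, was not called without EV glucose-deprived b, EV regular a or EV regular b (limma adjusted p = 0.18, 0.13 and 0.059). The KO call of UTP14A was not made without KO glucose-deprived b or KO regular b (limma adjusted p = 0.11 and 0.079), and that of UTP4 was lost on leaving out either glucose-deprived KO library, KO regular a or either EV regular library (limma adjusted p = 0.053 to 0.2).

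Large subunit assembly genes had the lowest medians, -0.56 in KO cells and -0.52 in EV cells: 16 of 19 fell and 1 rose in KO cells, and 15 fell and 2 rose in EV cells. RRP1B, a nucleolar partner of protein phosphatase (gene at chr21:43659548-43696079, plus strand, GRCh38), had 93.34 and 91.61 CPM in glucose-deprived KO cells against 172.9 and 170 CPM in regular medium. In EV cells it had 87.09 and 83.04 CPM without glucose, against 159.3 and 159.6 CPM in regular medium. Its log2 fold changes, -0.89 ± 0.036 in KO cells (limma adjusted p = 6.5e-09) and -0.91 ± 0.036 in EV cells (limma adjusted p = 5.1e-09), had the smallest adjusted p of the 50 genes in each cell type. MRTO4, whose yeast counterpart holds the place of a stalk protein on the nascent subunit, had 78.56 and 78.35 CPM in glucose-deprived KO cells against 143.8 and 146.7 CPM in regular medium, and 76.39 and 71.75 CPM in glucose-deprived EV cells against 130.9 and 130.7 CPM in regular medium. It fell by 0.89 ± 0.038 in KO cells (limma adjusted p = 1e-08) and by 0.82 ± 0.038 in EV cells (limma adjusted p = 1.6e-08), without overlap between media.

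NOC2L, whose yeast counterpart escorts early large subunit precursors, had 203.5 and 205.3 CPM in glucose-deprived KO cells against 318.9 and 317.1 CPM in regular medium, and 189.3 and 185.8 CPM in glucose-deprived EV cells against 301.1 and 297.7 CPM in regular medium. Its libraries separated by medium, with log2 fold changes of -0.64 ± 0.030 in KO cells (limma adjusted p = 2.1e-08) and -0.67 ± 0.030 in EV cells (limma adjusted p = 1.3e-08). Its partner NOC3L had -0.12 in KO cells (limma adjusted p = 0.027) and -0.08 in EV cells (limma adjusted p = 0.13). The 3 proteins of the PeBoW complex fell unequally: PES1 by 0.37 in KO cells and 0.21 in EV cells, BOP1 by 0.44 and 0.70, and WDR12 by 0.20 and 0.16. NOP2, an rRNA methyltransferase, fell by 0.62 and 0.52, and NIP7 by 0.59 and 0.58.

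RRS1 and PPAN had the largest falls in EV cells, and their glucose-deprived KO libraries spread widely. RRS1, a factor that helps load a ribonucleoprotein onto the large subunit, had 62.61 and 75.57 CPM in glucose-deprived KO cells against 121.7 and 115.4 CPM in regular medium, and 60.2 and 60.53 CPM in glucose-deprived EV cells against 129 and 122 CPM in regular medium. It fell by 0.78 ± 0.072 in KO cells (limma adjusted p = 3e-06) and by 1.06 ± 0.072 in EV cells (limma adjusted p = 2.8e-07). PPAN, whose yeast counterpart is a large subunit assembly factor, had 4.957 and 11 CPM in glucose-deprived KO cells against 12.65 and 9.374 CPM in regular medium, and 4.465 and 3.988 CPM in glucose-deprived EV cells against 16.32 and 15.11 CPM in regular medium. The KO libraries of the 2 media overlapped, with a log2 fold change of -0.56 ± 0.280 (limma adjusted p = 0.094), and those of EV cells did not, with -1.89 ± 0.280 (limma adjusted p = 0.00011). PPAN shares 56% of its exon bases with the readthrough gene PPAN-P2RY11 on the same strand, so its reads cannot be fully told from that gene's. The same holds for NOP2, with 54.4% shared with a same-strand gene, and LTV1, with 27.7%, and, since strand is not marked, for NHP2 (27.4%), TSR1 (20.7%), NIP7 (20.2%) and EBNA1BP2 (18.8%), which overlap genes on the opposite strand. BMS1 has 17 named pseudogenes.

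Among the GTPases of the large subunit, the direction was mixed. GNL2, whose yeast counterpart acts in nuclear export of the large subunit, had 162.2 and 147.1 CPM in glucose-deprived KO cells against 126 and 132.6 CPM in regular medium. In EV cells it had 145.9 and 143.9 CPM without glucose, against 122.3 and 122.9 CPM in regular medium. It rose by 0.26 ± 0.047 in KO cells (limma adjusted p = 0.00052) and by 0.24 ± 0.047 in EV cells (limma adjusted p = 0.00076), and was the only one of the 50 genes called higher in both. GNL3, nucleostemin, had 191.3 and 176.2 CPM in glucose-deprived KO cells against 167.6 and 172.9 CPM in regular medium, and 208.8 and 196.4 CPM in glucose-deprived EV cells against 160.1 and 162.7 CPM in regular medium. The media did not overlap in either cell type, the EV log2 fold change of 0.33 ± 0.046 passed (limma adjusted p = 6.9e-05), and the KO value of 0.11 ± 0.046 did not (limma adjusted p = 0.052). On values corrected for GC content the KO value changed sign to -0.03 (limma adjusted p = 0.43). Their paralog GNL3L fell, by 0.69 in KO cells and 0.44 in EV cells.

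Of the abundant nucleolar proteins, NCL and DDX21 fell and NPM1 was not called. NCL, nucleolin, had 1164 and 1097 CPM in glucose-deprived KO cells against 1356 and 1450 CPM in regular medium, and 1104 and 1099 CPM in glucose-deprived EV cells against 1322 and 1319 CPM in regular medium. It fell by 0.31 ± 0.040 in KO cells (limma adjusted p = 4.3e-05) and by 0.26 ± 0.040 in EV cells (limma adjusted p = 0.00014), with its media apart. DDX21, a helicase of the nucleolus, had 535.5 and 501.6 CPM in glucose-deprived KO cells against 547.9 and 588 CPM in regular medium, and 501.8 and 487.6 CPM in glucose-deprived EV cells against 559.7 and 554.8 CPM in regular medium. The separation was narrow, with -0.13 ± 0.043 in KO cells (limma adjusted p = 0.018) and -0.17 ± 0.043 in EV cells (limma adjusted p = 0.0038), and the KO call was not made without KO regular b or KO glucose-deprived b (limma adjusted p = 0.13 and 0.11). NPM1, nucleophosmin, had 1285 and 1162 CPM in glucose-deprived KO cells against 1110 and 1255 CPM in regular medium, and 1178 and 1168 CPM in glucose-deprived EV cells against 1170 and 1158 CPM in regular medium, and it has 45 named pseudogenes.

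**Figure D3:**
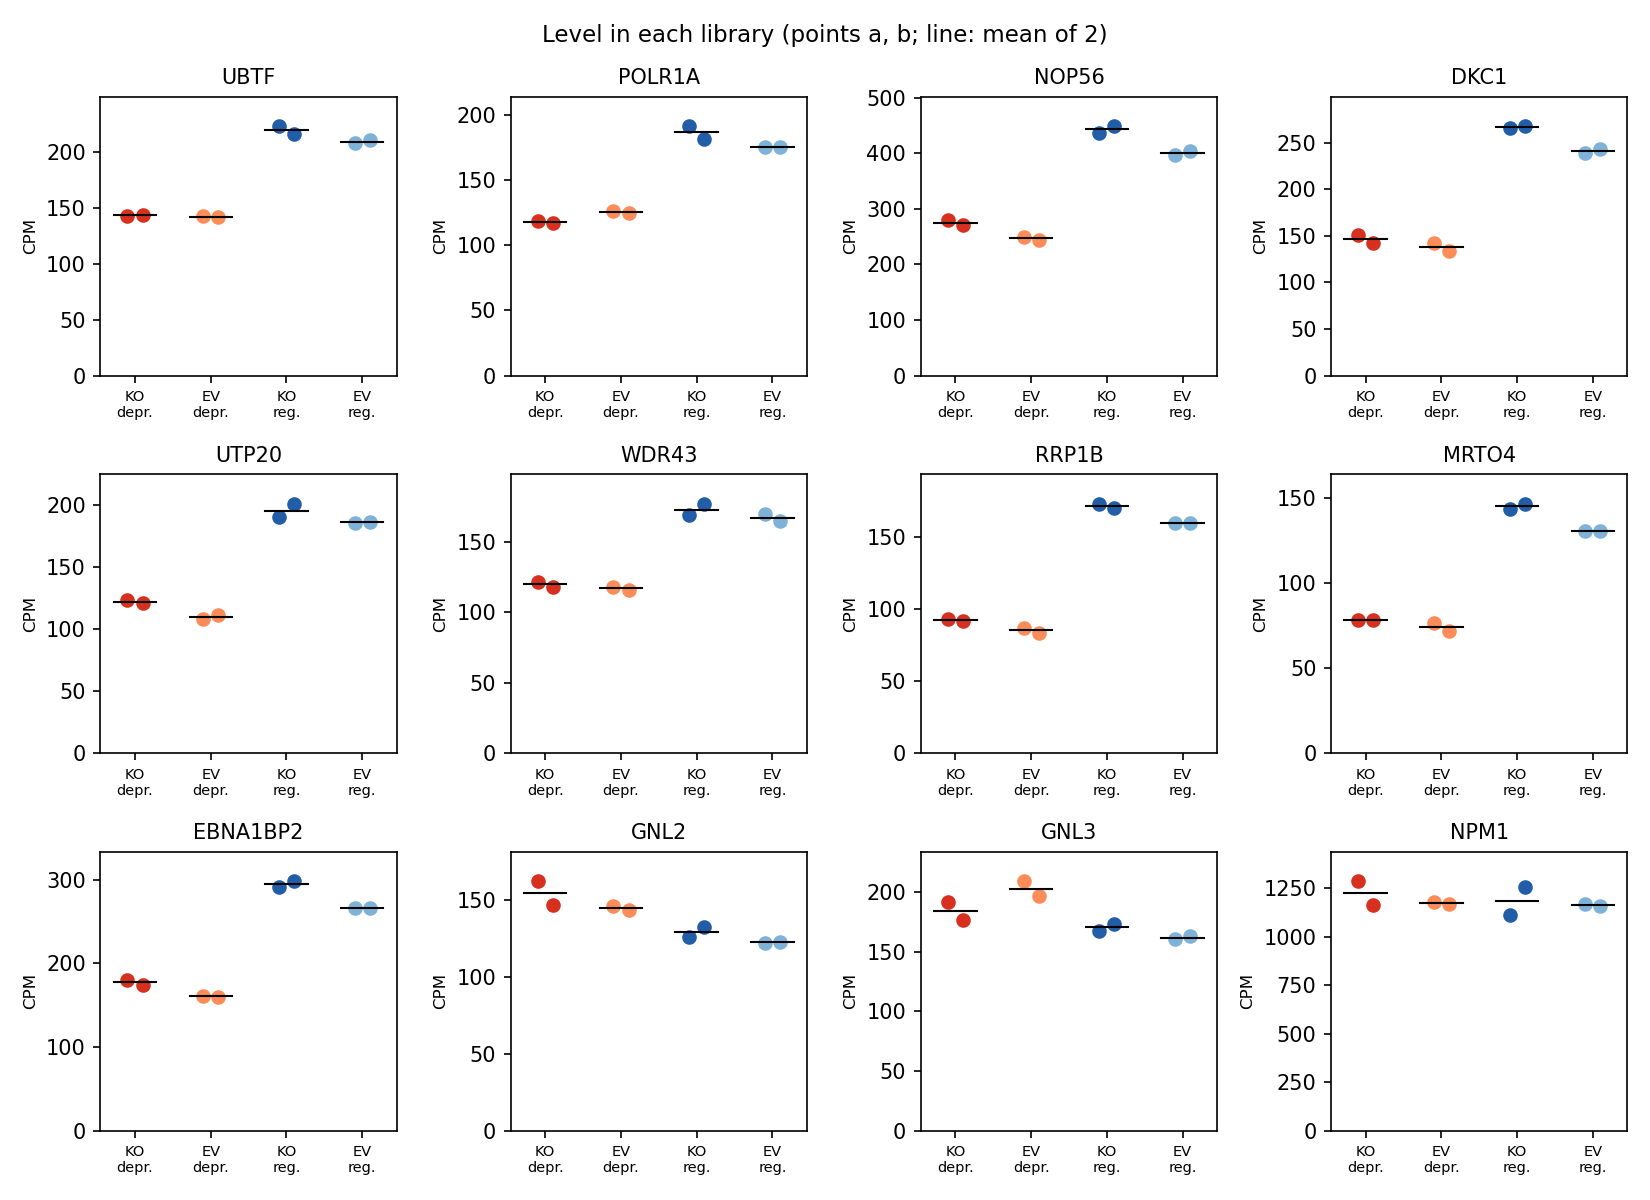
Level in CPM (y axis, from 0) of 12 genes in each library (points a and b, line at their mean), by group on the x axis: glucose-deprived KO, glucose-deprived EV, regular KO and regular EV. The 9 genes from UBTF to EBNA1BP2 sit lower in the glucose-deprived groups, GNL2 and GNL3 sit higher there, and NPM1 stays between 1110 and 1285 CPM.

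Of the 44 genes that fell under deprivation in KO cells and the 40 that fell in EV cells, 39 were the same. That is 88.6% of the KO and 97.5% of the EV list. With so many of the 50 genes called in each cell type, most had to be shared, so the overlap says little beyond those counts. Of the calls in either direction, 38 of 45 in KO cells and 41 of 43 in EV cells were made under every alternative processing tried. The exceptions were NHP2, UTP4, UTP14A, NOC3L, WDR74, DDX18 and DDX21 in KO cells and RRP12 and WDR74 in EV cells. GC content of the longest transcript moved with the size of the change: across the 50 genes Pearson's r between GC content and log2 fold change was -0.39 in KO cells and -0.46 in EV cells (Spearman's rho -0.41 in both), against -0.13 and -0.14 across 12784 genes. These genes share libraries and are not independent replicates. Their median GC content was 48.4%, against 47.8% for genes tested. After correction for GC content 44 of the 50 fell in KO cells and 42 in EV cells, where 5686 and 5621 of 12784 genes fell.

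Knockout was set against control cells in each medium, and its differences were small. In regular medium 8 of 50 genes were higher in KO cells and 0 lower, where 3.87% of all genes tested were higher and 3.38% lower. At a median log2 fold change of 0.08, against -0.003 over all genes, 44 of the 50 values were above 0. Both KO libraries lay above both EV libraries for 34 genes (background 27.7%) and below them for 4 (background 27.7%). Without EV regular a, or without EV regular b, which leaves 1 library in that group, the median was 0.08 in both cases. Calls were fewer in these fits, both among the 50 genes and over all genes tested. Of the 8 calls, 7 were not made under at least 1 alternative that kept all 8 libraries. The median lay between 0.05 and 0.10 with any 1 of the 8 libraries left out. Without a variance trend in the model 1 was called higher, where 214 of 13057 genes tested were, and with GC correction 14, where 1190 of 12784 were.

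RRP12, whose yeast counterpart acts in export of ribosomal subunits, had 207.8 and 203.7 CPM in KO cells and 177 and 173.7 CPM in EV cells in regular medium. BYSL had 70.6 and 67.43 CPM in KO cells and 59.54 and 58.01 CPM in EV cells. Their libraries did not overlap, and both had a log2 fold change of 0.23, ± 0.035 for RRP12 (limma adjusted p = 0.0041) and ± 0.046 for BYSL (limma adjusted p = 0.016). DDX56, a helicase of the large subunit, had 313.2 and 307.2 CPM in KO cells and 269.6 and 277.2 CPM in EV cells, with 0.18 ± 0.036 (limma adjusted p = 0.015). EBNA1BP2, a factor of early large subunit particles, had 291 and 298 CPM in KO cells and 265.6 and 266.1 CPM in EV cells, with 0.15 ± 0.033 (limma adjusted p = 0.025). Both stood apart from their controls, as did the snoRNP proteins NOP56, with 0.15 ± 0.033 (limma adjusted p = 0.025), and NOP10, which had 91.85 and 89.16 CPM in KO cells and 79.5 and 81.38 CPM in EV cells, with 0.17 ± 0.043 (limma adjusted p = 0.041). The remaining calls were MRTO4 at 0.15 (limma adjusted p = 0.041) and GNL3L at 0.15 (limma adjusted p = 0.044).

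RNA polymerase I and the abundant nucleolar proteins had 0 calls between KO and EV in regular medium. POLR1A, with the smallest adjusted p of its group, had 190.9 and 181.6 CPM in KO cells and 175.1 and 175.2 CPM in EV cells, and its value of 0.09 ± 0.035 on the log2 scale did not pass (limma adjusted p = 0.16). NCL had 1356 and 1450 CPM in KO cells and 1322 and 1319 CPM in EV cells, with 0.09 ± 0.040 (limma adjusted p = 0.23). In both genes the KO libraries lay above the EV libraries, by less than the test requires.

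Without glucose, 8 of 50 genes were higher in KO cells and 1 lower, where 9.04% of all genes tested were higher and 10.6% lower. The median log2 fold change was 0.04, against -0.006 over all genes. Both KO libraries lay above both EV libraries for 22 genes (background 28%) and below them for 6 (background 33.1%). With any 1 EV library left out fewer genes were called higher, both among the 50 and over all genes tested. Of the 9 calls, 7 were not made under at least 1 alternative that kept all 8 libraries. Without a variance trend 2 of the 50 genes were called higher, and with GC correction 14. Of all genes tested, 855 of 13057 were called higher without a variance trend and 1787 of 12784 with GC correction. The comparison shares its deprived libraries with the tests of deprivation, and the regular libraries enter its estimate of spread.

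NOP56 had 279.2 and 270.5 CPM in KO cells and 249.8 and 244.7 CPM in EV cells without glucose, with a log2 fold change of 0.15 ± 0.033 (limma adjusted p = 0.01). NOP16, a large subunit factor, had 68.97 and 68.54 CPM in KO cells and 60.78 and 61.72 CPM in EV cells, with 0.17 ± 0.036 (limma adjusted p = 0.011). EBNA1BP2 had 180.5 and 173.7 CPM in KO cells and 161.4 and 160 CPM in EV cells, with 0.14 ± 0.033 (limma adjusted p = 0.016). All of these were without overlap, and NOP56 and EBNA1BP2 were the 2 genes called higher in KO cells in both media, 25% of each list of 8. UTP20 was higher by 0.15 ± 0.037 (limma adjusted p = 0.017), with 123 and 120.6 CPM in KO cells and 108.2 and 110.9 CPM in EV cells. NOC2L at 0.12, NOLC1 at 0.14, RRP1B at 0.12 and NOP58 at 0.13 made up the rest (limma adjusted p = 0.018, 0.028, 0.039 and 0.046).

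NOP14, a processome protein, was the gene called lower in glucose-deprived KO cells, with 78.02 and 74.9 CPM against 85.45 and 83.2 CPM in glucose-deprived EV cells, a log2 fold change of -0.14 ± 0.036 (limma adjusted p = 0.022). The call was not made without a variance trend (limma adjusted p = 0.056), nor without either glucose-deprived EV library, KO glucose-deprived b or either EV regular library (limma adjusted p = 0.055 to 0.16). Its libraries did not overlap, its exons share 17.1% of their bases with the antisense gene NOP14-AS1, and the preparation does not mark strand. Among RNA polymerase I genes 0 were called, and POLR1A, with 118.6 and 116.6 CPM in KO cells and 125.9 and 124.5 CPM in EV cells, had -0.09 ± 0.035 (limma adjusted p = 0.097). DDX21 stood at 0.07 ± 0.043 (limma adjusted p = 0.3). PPAN had the largest value, 0.80 ± 0.280 (limma adjusted p = 0.069), which rests on 11 CPM in KO glucose-deprived b against 4.957 CPM in library a.

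**Figure D4:**
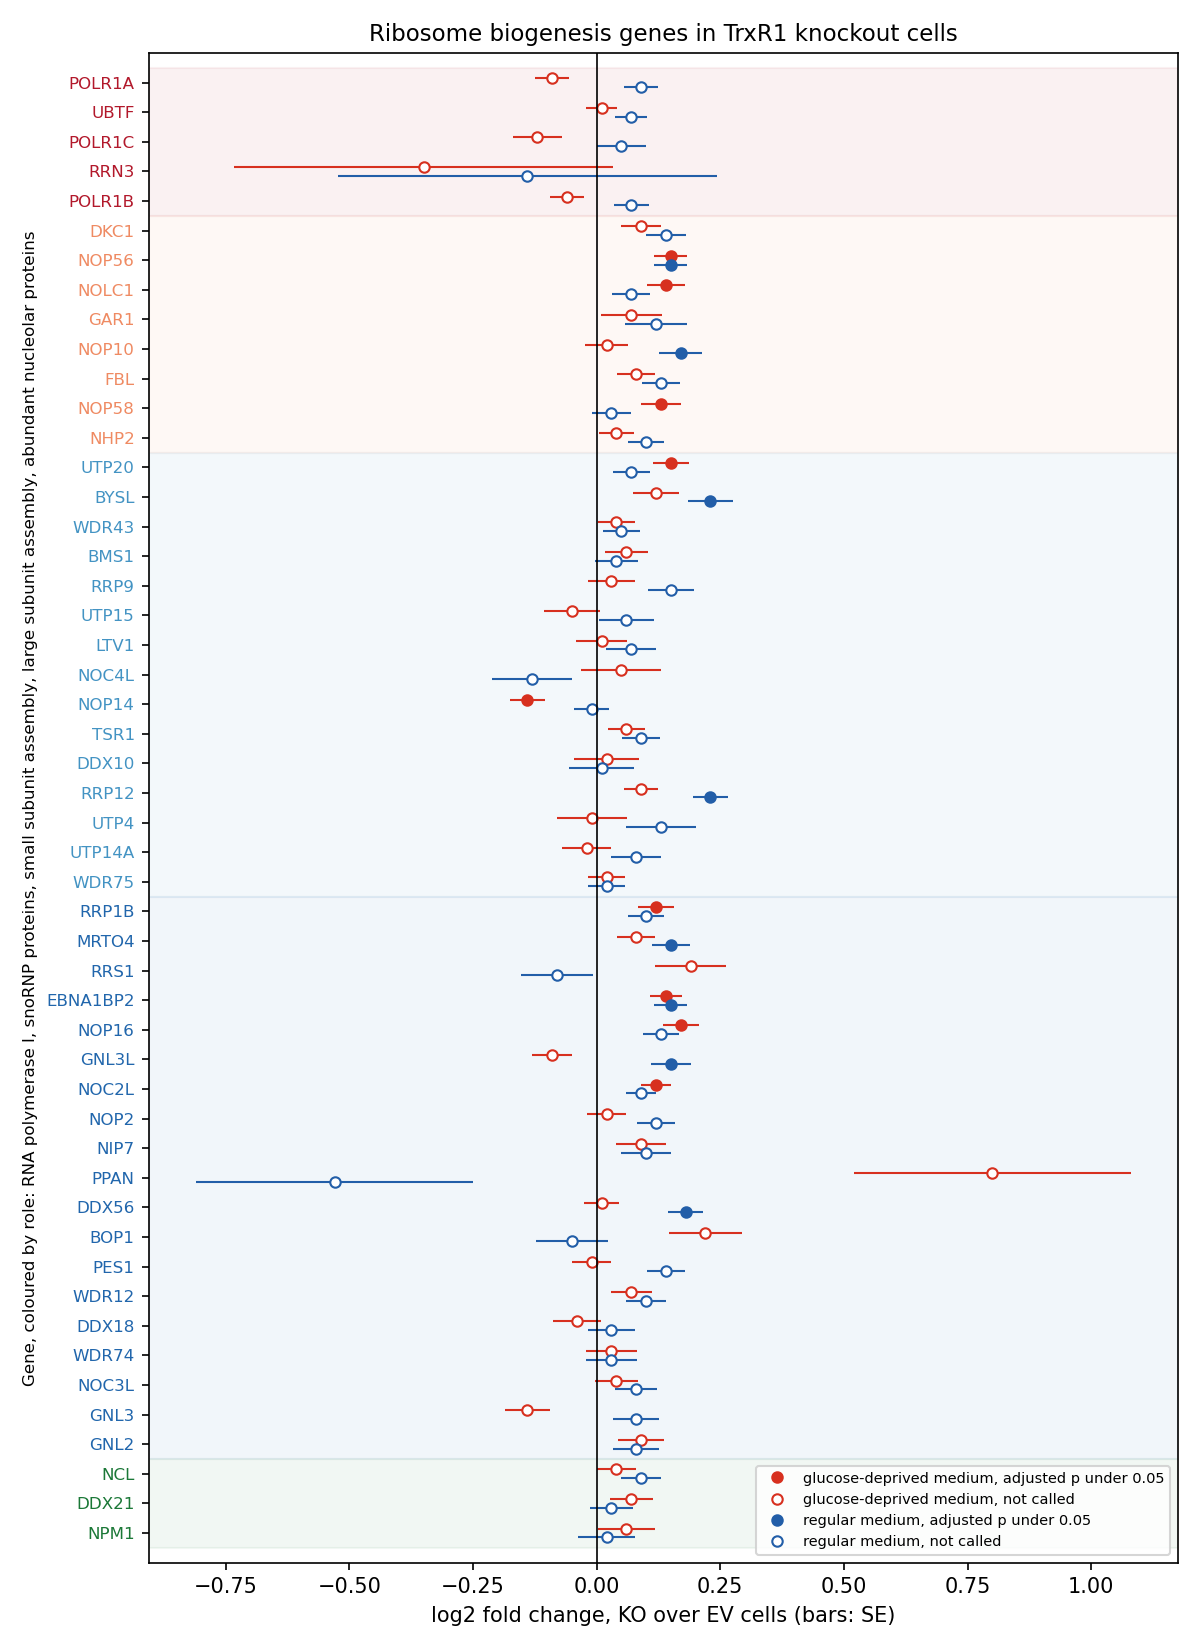
Log2 fold change, KO over EV, of each of the 50 genes (x axis; points, bars are SE), in glucose-deprived medium (red) and regular medium (blue), with filled points at an adjusted p under 0.05; genes run down the page by role. Filled points lie between 0.12 and 0.23, apart from NOP14 at -0.14 in glucose-deprived medium.

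Within the KO groups the 2 libraries differed along GC content. In glucose-deprived KO cells 42 of 50 genes were higher in library a than in b, and the a minus b difference in log2 CPM had r = -0.51 with GC content across the 50 genes, against -0.41 across all genes. In KO cells in regular medium 18 of 50 were higher in a, with r = 0.72, against 0.52 across all genes. For the EV groups r was 0.21 without glucose and 0.23 in regular medium. PPAN, BOP1, NOC4L and RRS1, all above the median in GC content, moved most between libraries of glucose-deprived KO cells, and whether this gradient accounts for any knockout difference was not tested beyond the GC-corrected values above.

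**Figure D5:**
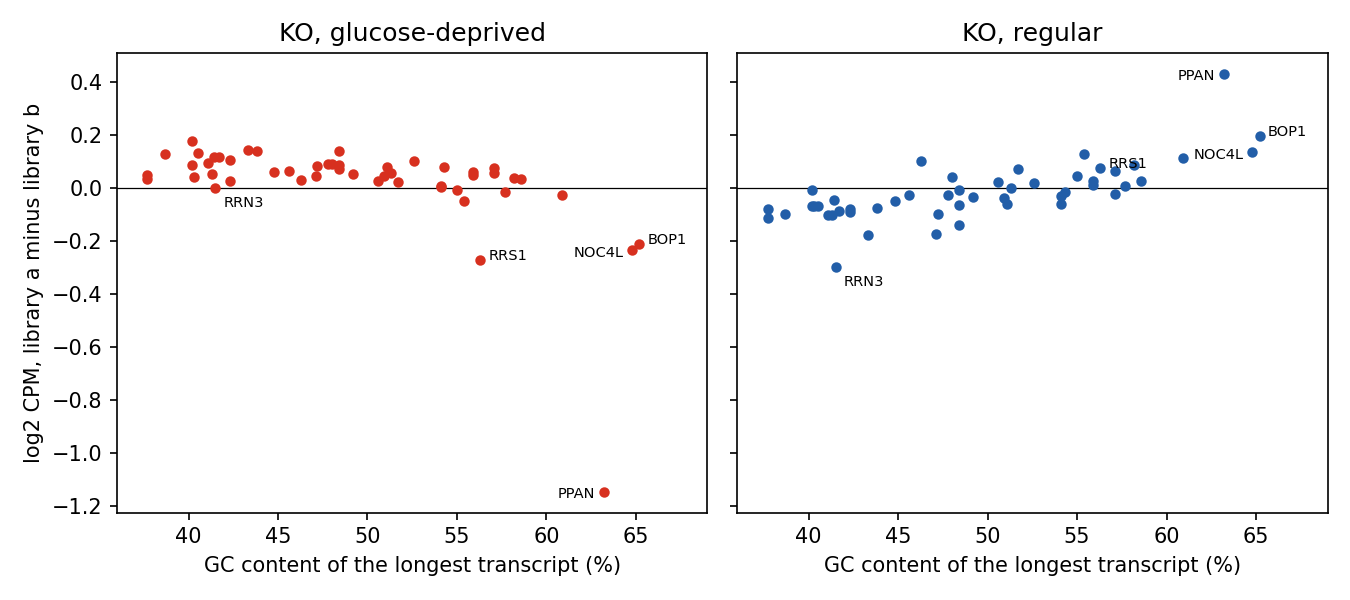
Difference in log2 CPM between libraries a and b (y axis) against GC content of the longest transcript (x axis, percent) for the 50 genes, in glucose-deprived KO cells (left) and KO cells in regular medium (right). The points slope downward on the left and upward on the right, with PPAN farthest from 0 in both.

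The effect of knockout was tested for a difference between media, which is the same as a difference of the deprivation effect between KO and EV cells. Of the 50 genes 0 had a higher and 1 a lower value, where 2.31% of all genes tested were higher and 2.01% lower, and the median difference was -0.05. The gene was GNL3L (chrX:54530211-54561071, plus strand, GRCh38), a nucleolar GTPase. It had 78.31 and 73.01 CPM in glucose-deprived KO cells and 80.35 and 80.8 CPM in glucose-deprived EV cells, and 122.8 and 121.1 CPM in KO cells and 108.7 and 110.5 CPM in EV cells in regular medium. Both KO libraries lay below both EV libraries without glucose and above them in regular medium, and the difference of log2 fold changes was -0.25 ± 0.056 (limma adjusted p = 0.039). Over all alternatives the difference for GNL3L lay between -0.30 and -0.20. The call was not made in most fits with 1 library left out. Such fits leave 1 library in a group, and the number of all genes called moved with them.

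POLR1A at -0.18 (limma adjusted p = 0.07), GNL3 at -0.22 (limma adjusted p = 0.082), DDX56 at -0.17 (limma adjusted p = 0.084) and PPAN at 1.33 (limma adjusted p = 0.084) came next and did not pass. All 5 RNA polymerase I genes had a negative difference, between -0.21 for RRN3 and -0.05 for UBTF, and 0 of them passed. That GNL3 and POLR1B were called under deprivation in EV cells and not in KO cells is therefore not shown to be a difference between the cell types.

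Further genes of the pathway were taken from lists that the 50 genes are not part of. Of 18 other RNA polymerase I genes, 10 fell and 2 rose under deprivation in KO cells and 9 fell and 3 rose in EV cells. For these and the following lists the background is the share of all genes tested that fell, 36.8% in KO and 38.7% in EV cells, and that rose, 36.5% and 37.5%. The other RNA polymerase I genes include POLR1G, a polymerase subunit, which had 11.21 and 10.64 CPM in glucose-deprived KO cells against 25.94 and 26.34 CPM in regular medium, and 10.77 and 10.83 CPM in glucose-deprived EV cells against 22.2 and 22.17 CPM in regular medium. It fell by 1.26 ± 0.051 in KO cells (limma adjusted p = 7.5e-09) and by 1.04 ± 0.051 in EV cells (limma adjusted p = 2.6e-08), more than any polymerase subunit among the 50. CAVIN1, known both as a transcript release factor and as a protein of caveolae, fell by 1.32 and 1.34, and POLR2L, a subunit common to the nuclear polymerases, by 0.97 and 0.86.

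Of 41 other small subunit genes, 29 fell and 4 rose in KO cells and 29 fell and 6 rose in EV cells, with RRP7A at -0.84 and -1.01 and the helicase DHX37 at -0.81 and -0.78. Of 42 other large subunit genes, 23 fell and 9 rose in KO cells and 27 fell and 10 rose in EV cells, with URB2 at -0.79 and -0.69 and the helicase DDX51 at -0.82 and -0.84. Of 10 other snoRNP genes, 9 fell and 0 rose in KO cells and 9 fell and 1 rose in EV cells, with RUVBL1, an ATPase of snoRNP assembly, at -0.61 and -0.51. The RNA exosome and trimming genes were more divided: of 16, 8 fell and 5 rose in KO cells and 9 fell and 5 rose in EV cells. EXOSC3 fell by 0.58 and 0.75 there, while EXOSC8 rose by 0.66 and 0.77. Medians of these lists lay between -0.31 and -0.15 in KO cells and between -0.35 and -0.12 in EV cells, nearer to 0 than those of the 50 genes except for the snoRNP genes in EV cells, at -0.35. Between KO and EV cells without glucose, 1 of the other RNA polymerase I genes, 4 small subunit, 5 large subunit, 3 snoRNP and 2 exosome genes were higher (background 9.04%), and BAZ2A and PIH1D1 were lower (background 10.6%). In regular medium 2, 1, 2, 2 and 0 genes of these lists were higher (background 3.87%) and 0 were lower (background 3.38%).

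Most genes of the MYC and MAX network rose under deprivation. Of its 11 genes, 8 rose and 2 fell in KO cells and 7 rose and 1 fell in EV cells, where 36.5% of all genes tested rose in KO and 37.5% in EV cells. MYC had 93.65 and 98.94 CPM in glucose-deprived KO cells against 56.65 and 50.34 CPM in regular medium, and 83.83 and 83.68 CPM in glucose-deprived EV cells against 43.66 and 45.76 CPM in regular medium. It rose by 0.85 ± 0.056 in KO cells (limma adjusted p = 2.3e-07) and by 0.91 ± 0.056 in EV cells (limma adjusted p = 1.2e-07). MXD1, a MAX partner that represses through the same E-box, had 124.7 and 130.6 CPM in glucose-deprived KO cells against 10.47 and 11.47 CPM in regular medium, and 73.9 and 73.26 CPM in glucose-deprived EV cells against 10.28 and 9.968 CPM in regular medium. The groups were far apart, with log2 fold changes of 3.54 ± 0.052 in KO cells (limma adjusted p = 5.4e-12) and 2.86 ± 0.052 in EV cells (limma adjusted p = 2e-11). MXI1, of the same family, rose by 1.82 in KO cells and 1.89 in EV cells.

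MXD1 was also higher in KO than EV cells without glucose, by 0.79 ± 0.052 (limma adjusted p = 7.7e-06), and not called in regular medium (0.11, limma adjusted p = 0.22). The difference between media was 0.68 ± 0.074 (limma adjusted p = 0.00087). MYC was higher in KO cells in both media, by 0.20 without glucose (limma adjusted p = 0.031) and by 0.26 in regular medium (limma adjusted p = 0.022).

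The promoters with and without an E-box, shown above, had like values under deprivation. In KO cells 15 of the 16 genes with an E-box fell and 1 rose, at a median of -0.43, and 22 of the 27 without one fell, at a median of -0.42. In EV cells 12 of 16 fell and 1 rose, at -0.32, against 22 of 27 that fell and 2 that rose, at -0.31. Of all genes tested, 36.8% fell and 36.5% rose in KO cells, and 38.7% fell and 37.5% rose in EV cells. Of the printed promoters, that of GNL2 holds an E-box near the start as those of UTP20 and MRTO4 do, and its gene rose. In regular medium, 4 of 16 genes with an E-box were higher in KO than EV cells (background 3.87%), at a median of 0.13. Of the 27 without one, 3 were higher, at a median of 0.08. Without glucose, 2 of the 16 were higher and 1 lower in KO cells, at a median of 0.03. There 3 of the 27 were higher and 0 lower, at a median of 0.04 (background 9.04% higher and 10.6% lower). Differences between these subsets were not tested.

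Some of these genes are hosts of snoRNAs. In GENCODE 29, 9 of the 50 genes (18%) had an annotated snoRNA within their bounds, against 298 of 12986 genes found by symbol (2.29%). GNL3 held 6, NOP56 5 and NOP58 4, WDR43 and NCL 3 each, DKC1, TSR1 and PPAN 2 each, and POLR1C 1. Under deprivation 7 of the 9 hosts fell (background 36.8%) and 0 rose (background 36.5%) in KO cells, with a median of -0.42. In EV cells 8 fell (background 38.7%) and 1 rose (background 37.5%), with a median of -0.28. The other 41 genes had medians of -0.42 and -0.32.

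Checks of the series as a whole were as follows. Libraries held 70083018 to 107229069 reads over the table. TXNRD1, the gene of TrxR1, had 370.4 and 350.8 CPM in glucose-deprived KO cells, 508.7 and 492.7 CPM in glucose-deprived EV cells, 244.9 and 249.5 CPM in KO cells and 262.8 and 260.6 CPM in EV cells in regular medium; a total over the gene does not test an edit. TXNIP, known to fall when glucose is short, had 8.428 to 11.04 CPM in the libraries read as glucose-deprived and 77.33 to 87.05 CPM in the others. Of the glial line's markers, GFAP lay near 1 CPM in all libraries (0.6747 to 1.408) and was below the filter, so it was not tested. Its glucose-deprived libraries, at 1.119 to 1.408 CPM, lay above its regular ones, at 0.6747 to 0.8022 CPM. The other 6 markers changed with the medium in both cell types. Under deprivation NES, at 376.2 to 860.3 CPM, fell by 0.97 in KO and 1.03 in EV cells, SOX2 by 1.35 and 1.72 and CD44 by 0.21 and 0.08, while VIM, at 2897 to 3696 CPM, rose by 0.20 and 0.30, OLIG2 by 1.32 and 1.24 and S100B by 0.36 and 0.30. Between KO and EV cells SOX2 had -0.15 without glucose and -0.51 in regular medium, S100B -0.40 and -0.46, all called lower, and without glucose NES was higher at 0.18 and VIM lower at -0.12. WWTR1, the gene of TAZ, had 306.5 to 362.3 CPM. Between KO and EV cells it had -0.16 in regular medium (limma adjusted p = 0.024) and -0.11 without glucose (limma adjusted p = 0.049), both called lower. Under deprivation it had -0.12 in EV cells (limma adjusted p = 0.0093) and -0.07 in KO cells, where it did not pass (limma adjusted p = 0.081). The part of the shifts in these markers and in WWTR1 in the results was not tested. Of 6 markers of other cell types 2 had a row (CD68 and RBFOX3). Their summed level was 45.4 to 49.6 CPM in glucose-deprived KO cells and 51.9 to 54.4 CPM in glucose-deprived EV cells, against 25.4 to 26 CPM in KO cells and 25.5 to 26.8 CPM in EV cells in regular medium, nearly all of it CD68, and their part in the results was not tested.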

How the data were processed

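RNA-seq libraries were made from total RNA by SMART-Seq and Nextera XT chemistry, per the labels' protocols, which keeps no strand. HISAT2, edgeR and GRCh38 were used, per the submitters' processing notes; versions, counter and annotation are not given in the sources used here. The authors deposited log2 CPM for 13730 genes; 100% of values came out as whole reads within 0.05. Printed CPM values undo the log2 and subtract an offset of 0.023 CPM.

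All 8 libraries entered 1 linear model with a term per group (R 4.3.3, limma 3.58.1, eBayes with trend), for the 13057 genes whose log2 CPM averaged 0 or more. Tests were two-sided, with Benjamini-Hochberg adjustment over all genes tested and a threshold of 0.05. Columns carry no replicate numbers, so a and b follow column order. The labels do not say that replicates were separate cultures, so the p-values speak to the spread among libraries only, which may be technical. That spread was pooled over the 4 groups.

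The 50 genes and the other lists were chosen with earlier results of these data known. Library values are given for the 2 called genes of each role with the smallest adjusted p in each direction, for 1 gene of a role with 0 calls, and for genes at either end of the range or with a call in 1 cell type, which were chosen after their values were seen. Alternatives were no filter, a mean log2 CPM of at least 3, no variance trend, median-of-ratios scaling, log2(CPM + 1), voom on recovered reads, leaving out each library and, added after seeing the data, GC-corrected values. A further marker of another cell type is not reported here.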

Additional observations from a re-analysis of the deposited data

Results flagged for a closer look

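GNL3L was singled out because its KO against EV difference was not the same in the 2 media by the test of that difference itself: the log2 fold change in glucose-deprived medium less that in regular medium was -0.25 (limma adjusted p = 0.039). GNL3L was the 1 gene of the 50 called lower by that test, where 2.01% of all genes tested were, so the count is near background. Over all alternatives its value lay between -0.30 and -0.20. The call was not made in 6 of the 8 fits that leave out 1 library (limma adjusted p = 0.072 to 0.2), nor without a variance trend (limma adjusted p = 0.11).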

How the results depend on the processing

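No paired analysis was possible because the columns carry no replicate numbers. Under glucose deprivation, genes that fell numbered 38 in each cell type without a variance trend, against 44 in KO cells and 40 in EV cells. Of 13057 genes tested, 4675 fell in KO cells and 4926 in EV cells under that setting. Genes that rose in KO cells numbered 2 under median-of-ratios scaling, against 1, where 4781 of 13057 genes tested rose. The median was -0.42 to -0.38 in KO cells with 1 library left out, and -0.39 in EV cells with GC-corrected values, against -0.32. Under deprivation in KO cells POLR1B turned to -0.057 and GNL3 to -0.03 with GC-corrected values. Between KO and EV cells in regular medium, higher genes numbered 1 without a variance trend, 14 with GC-corrected values and 0 to 12 with 1 library left out, against 8, and lower genes 0 to 1. Without glucose, higher genes numbered 2, 14 and 0 to 9 in the same order, against 8; lower genes numbered 2 with the stricter filter, 0 without a variance trend, 4 with GC-corrected values and 0 to 3 with 1 library left out, against 1; the median was 0.019 to 0.081. For the difference between media, higher genes numbered 2 with GC-corrected values, against 0. Lower genes numbered 0 without a variance trend, where 71 of 13057 genes tested were lower, and 5 with GC-corrected values, against 1. The median was -0.076 to -0.010 with 1 library left out. The number of all genes called moved with the setting too, as given above for the variance trend and GC correction. For the difference between media, 731 of 12784 genes were higher and 1048 lower with GC-corrected values. The cause of these shifts was not tested. Libraries held at least 70083018 reads, and RRN3 and PPAN differed most between libraries of 1 group. RRN3 was below the filter, and so has no value, with the stricter filter and without EV glucose-deprived b.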
